A study of Mus musculus with 8 samples.

Results

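The genes described here are 10 regulators of mouse pluripotency, Pou5f1, Nanog, Sox2, Klf4, Esrrb, Tfcp2l1, Prdm14, Zfp42, Tbx3 and Lin28a. They were chosen by name, and all 10 were found among the 21938 protein-coding genes of the GENCODE M21 annotation of mm10. For each gene, the peaks that touched a window made of the gene body and 50 kb on either side were collected. The peaks came from chromatin immunoprecipitation sequencing (ChIP-seq) against the hemagglutinin (HA) tag of EHMT2 in mouse embryonic stem cells (mESCs) of a BL6/129 hybrid background, cultured with LIF and serum. Every group, controls included, carried the EHMT2-dTAG-mcherry allele, which fuses the endogenous protein to a degron and HA tags. All cells had been treated for 24 h, either with DMSO or with dTAG, the degrader that removes the tagged protein. Of the 8 samples, the 2 C29F4 ChIP samples (DMSO, separate cell lines) were merged by the authors into 1 peak list, and the antibody ab9110 gave 1 ChIP list from DMSO, 1 from dTAG and 1 input list from dTAG. No condition had a second list, so no difference between lists has a replicate check, and every interval given here covers counting error only. The antibodies were used in separate sequencing experiments, so antibody and experiment cannot be told apart. Folds are set side by side between lists but were not tested against each other. On chromosomes 1 to 19, X and Y there were 11010 C29F4, 40813 DMSO, 16323 dTAG and 2046 input peaks. Mean fragment coverage, taken from the commonest background value of each list, was 3.64, 2.11, 1.23 and 0.980, respectively. Expression was not measured in these files, so the activity of the genes was not examined here.

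EHMT2 is the histone methyltransferase that deposits H3K9me2, a mark of silent chromatin. Pluripotency rests on a small circuit of transcription factors. OCT4 (the product of Pou5f1), SOX2 and NANOG bind together at enhancers, including their own. KLF4, ESRRB, TFCP2L1 and TBX3 tie that circuit to signals that maintain the naive state, and PRDM14 restrains the signals that lead out of it. Zfp42 (also called Rex1) is a widely used marker gene of the naive state, and Lin28a encodes an RNA-binding protein that blocks the maturation of let-7 microRNAs.

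The sites on which the comparisons turn are shown first. All sequences come from the plus strand of GRCm38 (mm10), reach 100 bases to either side of a peak summit and are printed 5′ to 3′. Capitals mark a match, on either strand, to any of 5 short motifs: the POU octamer ATGCAAAT, the core of the composite SOX-POU element TTGTNATGC, the SOX motif AACAATGG, the ESRRB motif TCAAGGTCA and the KLF motif GGGNGTGG. The octamer and the SOX-POU core share the letters ATGC and can overlap. The first set holds, of the C29F4 peaks with an ab9110 peak in DMSO but none in dTAG, the 4 of highest fold, and is shown because these sites had HA signal with both antibodies and no peak after the degrader. They lie upstream of Lin28a at chr4:134020621-134020821, beyond the 3′ end of Prdm14 at chr1:13071425-13071625, upstream of Tfcp2l1 at chr1:118588261-118588461 and upstream of Zfp42 at chr8:43352812-43353012. None of the 5 motifs occurs in them.
Lin28a upstream: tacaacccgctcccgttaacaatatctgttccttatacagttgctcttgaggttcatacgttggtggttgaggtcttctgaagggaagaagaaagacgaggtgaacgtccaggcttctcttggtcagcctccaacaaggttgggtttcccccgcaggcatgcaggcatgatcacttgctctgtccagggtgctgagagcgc
Prdm14 distal: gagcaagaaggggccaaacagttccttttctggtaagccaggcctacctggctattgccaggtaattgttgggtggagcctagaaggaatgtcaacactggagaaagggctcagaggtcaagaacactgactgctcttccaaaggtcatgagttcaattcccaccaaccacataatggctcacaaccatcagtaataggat
Tfcp2l1 upstream: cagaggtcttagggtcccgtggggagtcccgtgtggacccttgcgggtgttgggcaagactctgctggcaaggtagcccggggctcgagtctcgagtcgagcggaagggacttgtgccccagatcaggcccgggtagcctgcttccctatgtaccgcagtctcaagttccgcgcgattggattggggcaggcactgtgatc
Zfp42 upstream: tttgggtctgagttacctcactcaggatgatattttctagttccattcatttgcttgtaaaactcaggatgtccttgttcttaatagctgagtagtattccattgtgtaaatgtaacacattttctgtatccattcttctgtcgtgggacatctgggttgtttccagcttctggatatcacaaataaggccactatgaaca

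The next pair holds the C29F4 summits of highest fold that had a peak in both ab9110 lists, shown as the contrast to the first set. They lie upstream of Zfp42 at chr8:43353736-43353936 and beyond the 3′ end of Prdm14 at chr1:13085103-13085303. The Prdm14 summit holds a SOX motif.
Zfp42 far upstream: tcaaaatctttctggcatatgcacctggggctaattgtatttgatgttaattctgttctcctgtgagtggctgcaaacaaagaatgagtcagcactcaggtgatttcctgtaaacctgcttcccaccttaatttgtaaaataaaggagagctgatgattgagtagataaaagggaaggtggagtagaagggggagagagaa
Prdm14 downstream: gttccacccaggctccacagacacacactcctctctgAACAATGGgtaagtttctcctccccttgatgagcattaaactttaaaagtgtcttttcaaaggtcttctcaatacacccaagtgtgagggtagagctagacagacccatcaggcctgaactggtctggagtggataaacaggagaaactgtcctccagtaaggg

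A further pair shows the dTAG summits of highest fold within 1 kb of an annotated transcript start of a member. They lie inside Esrrb at chr12:86504430-86504630, where the ESRRB motif itself occurs, and inside Tbx3 at chr5:119679956-119680156, where no motif occurs.
Esrrb internal start: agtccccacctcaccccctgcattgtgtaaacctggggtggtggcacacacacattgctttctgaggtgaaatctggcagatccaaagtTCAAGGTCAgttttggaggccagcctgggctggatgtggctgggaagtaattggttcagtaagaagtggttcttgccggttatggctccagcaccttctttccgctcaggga
Tbx3 internal start: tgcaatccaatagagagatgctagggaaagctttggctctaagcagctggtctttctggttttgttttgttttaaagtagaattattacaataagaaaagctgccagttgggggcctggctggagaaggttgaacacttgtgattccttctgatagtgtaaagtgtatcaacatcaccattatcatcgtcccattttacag

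The last set was chosen after the motif matches were seen, and holds every ab9110 DMSO summit of the member windows with the SOX-POU core. These lie upstream of Pou5f1 at chr17:35503994-35504194, at the start of Nanog at chr6:122707304-122707504 and downstream of Sox2 at chr3:34653979-34654179. All 3 of these peaks overlapped a dTAG peak.
Pou5f1 upstream: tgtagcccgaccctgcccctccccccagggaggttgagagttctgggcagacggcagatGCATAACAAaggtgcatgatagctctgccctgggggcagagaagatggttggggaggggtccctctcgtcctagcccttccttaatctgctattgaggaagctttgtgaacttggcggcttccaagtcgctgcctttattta
Nanog start: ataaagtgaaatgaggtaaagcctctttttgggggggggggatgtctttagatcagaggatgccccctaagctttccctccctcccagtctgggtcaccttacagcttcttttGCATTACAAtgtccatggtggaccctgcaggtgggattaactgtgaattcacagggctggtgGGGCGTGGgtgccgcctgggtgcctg
Sox2 downstream: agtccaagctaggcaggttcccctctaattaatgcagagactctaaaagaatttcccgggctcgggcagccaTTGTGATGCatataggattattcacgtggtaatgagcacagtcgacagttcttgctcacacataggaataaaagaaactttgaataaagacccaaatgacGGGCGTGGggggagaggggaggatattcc

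The windows of the pluripotency genes were dense in ab9110 peaks, while their C29F4 peaks were few and near the background. The ab9110 DMSO list placed 92 peaks in the 1292 kb of the 10 windows, where the density of the list over the assembled genome would place 19.9. The dTAG list placed 48 there, against 7.97 at its own genome-wide density. The C29F4 list placed 8, against 5.37, and the input list 2, against 0.999. The windows of all protein-coding genes, built by the same rule, are the closer standard. There, the median density was 1.75 DMSO peaks per 100 kb of window (quartiles 0.872 and 2.82), and the median of the 10 members was 7.23, with a range of 4.33 at Lin28a to 10.7 at Zfp42. For dTAG peaks the median density was 0.924 per 100 kb over all protein-coding genes and 3.69 over the members, from 1.27 at Tfcp2l1 to 7.15 at Zfp42. Each member exceeded the upper quartile of all genes in DMSO, and in dTAG each except Tfcp2l1 exceeded the upper quartile of 1.91.

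**Figure D1:**
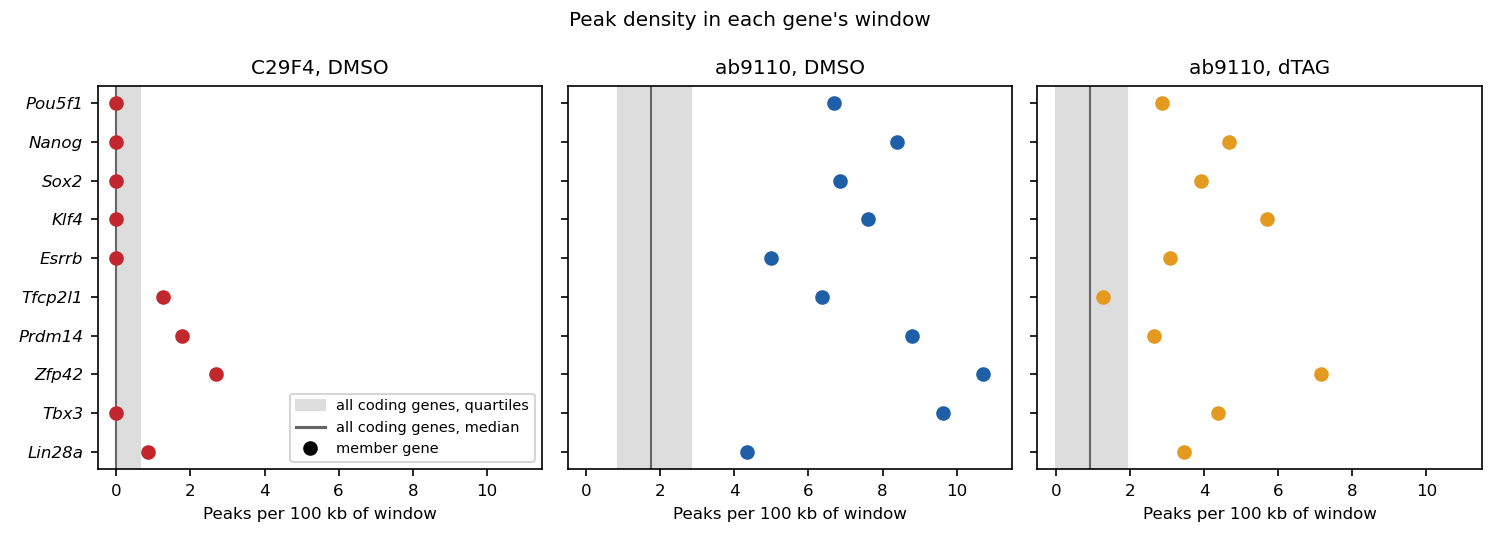
Peaks per 100 kb of window for each of the 10 genes in the C29F4 (DMSO), ab9110 DMSO and ab9110 dTAG lists (points). The gray band spans the quartiles and the line marks the median over the windows of all 21938 protein-coding genes. In the DMSO panel the members sit between 4.33 and 10.7, to the right of the band, while 6 of the 10 sit at 0 in the C29F4 panel.

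Read gene by gene, the DMSO densities were highest at Zfp42 (12 peaks, 10.7 per 100 kb), Tbx3 (11 peaks, 9.64), Prdm14 (10 peaks, 8.79) and Nanog (9 peaks, 8.40). More than 99% of protein-coding genes had a lower density than each of these 4: 99.7%, 99.6%, 99.4% and 99.2%, respectively. Klf4 (8 peaks, 7.60 per 100 kb), Sox2 (7 peaks, 6.86), Pou5f1 (7 peaks, 6.68) and Tfcp2l1 (10 peaks, 6.36) followed. Esrrb had the most peaks, 13, in the longest window, 261 kb, and thus a density of 4.99. Lin28a was lowest with 5 peaks and a density of 4.33, which still exceeded 90.5% of protein-coding genes. These orders rest on counts of 5 to 13 peaks, so neighbors in them differ by less than counting error. In the dTAG list Zfp42 and Esrrb had 8 peaks each, Klf4 6, Nanog and Tbx3 5 each, Sox2 and Lin28a 4 each, Pou5f1 and Prdm14 3 each and Tfcp2l1 2.

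Having a peak in the window did not by itself set the members apart in every list. All 10 had a DMSO peak, as did 84.9% of protein-coding genes, and all 10 had a dTAG peak, as did 71.2%. For C29F4, 4 of the 10 (Tfcp2l1, Prdm14, Zfp42 and Lin28a) had a peak, against 32.1% of protein-coding genes, which is close to the background. An input peak was present at Zfp42 alone, against 11.6% of protein-coding genes. Its 2 input peaks lay 8924 and 9633 bp upstream of the gene, each with a fold of 4.30 over 11 fragments, and neither overlapped a ChIP peak. By median fold the peaks themselves were not unusually strong, although the DMSO peaks had a median of 17 fragments, against 14 over the whole list. Fold here means fragments over background at the summit, after a constant is added to both. The median fold was 3.16 for DMSO peaks in the member windows and 3.28 over the whole list, and 3.91 and 3.78 for dTAG. Their median share of soft-masked (repeat) bases was 21.4% in DMSO against 26.6% over the list, and 16.8% in dTAG against 12.8%.

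**Figure D2:**
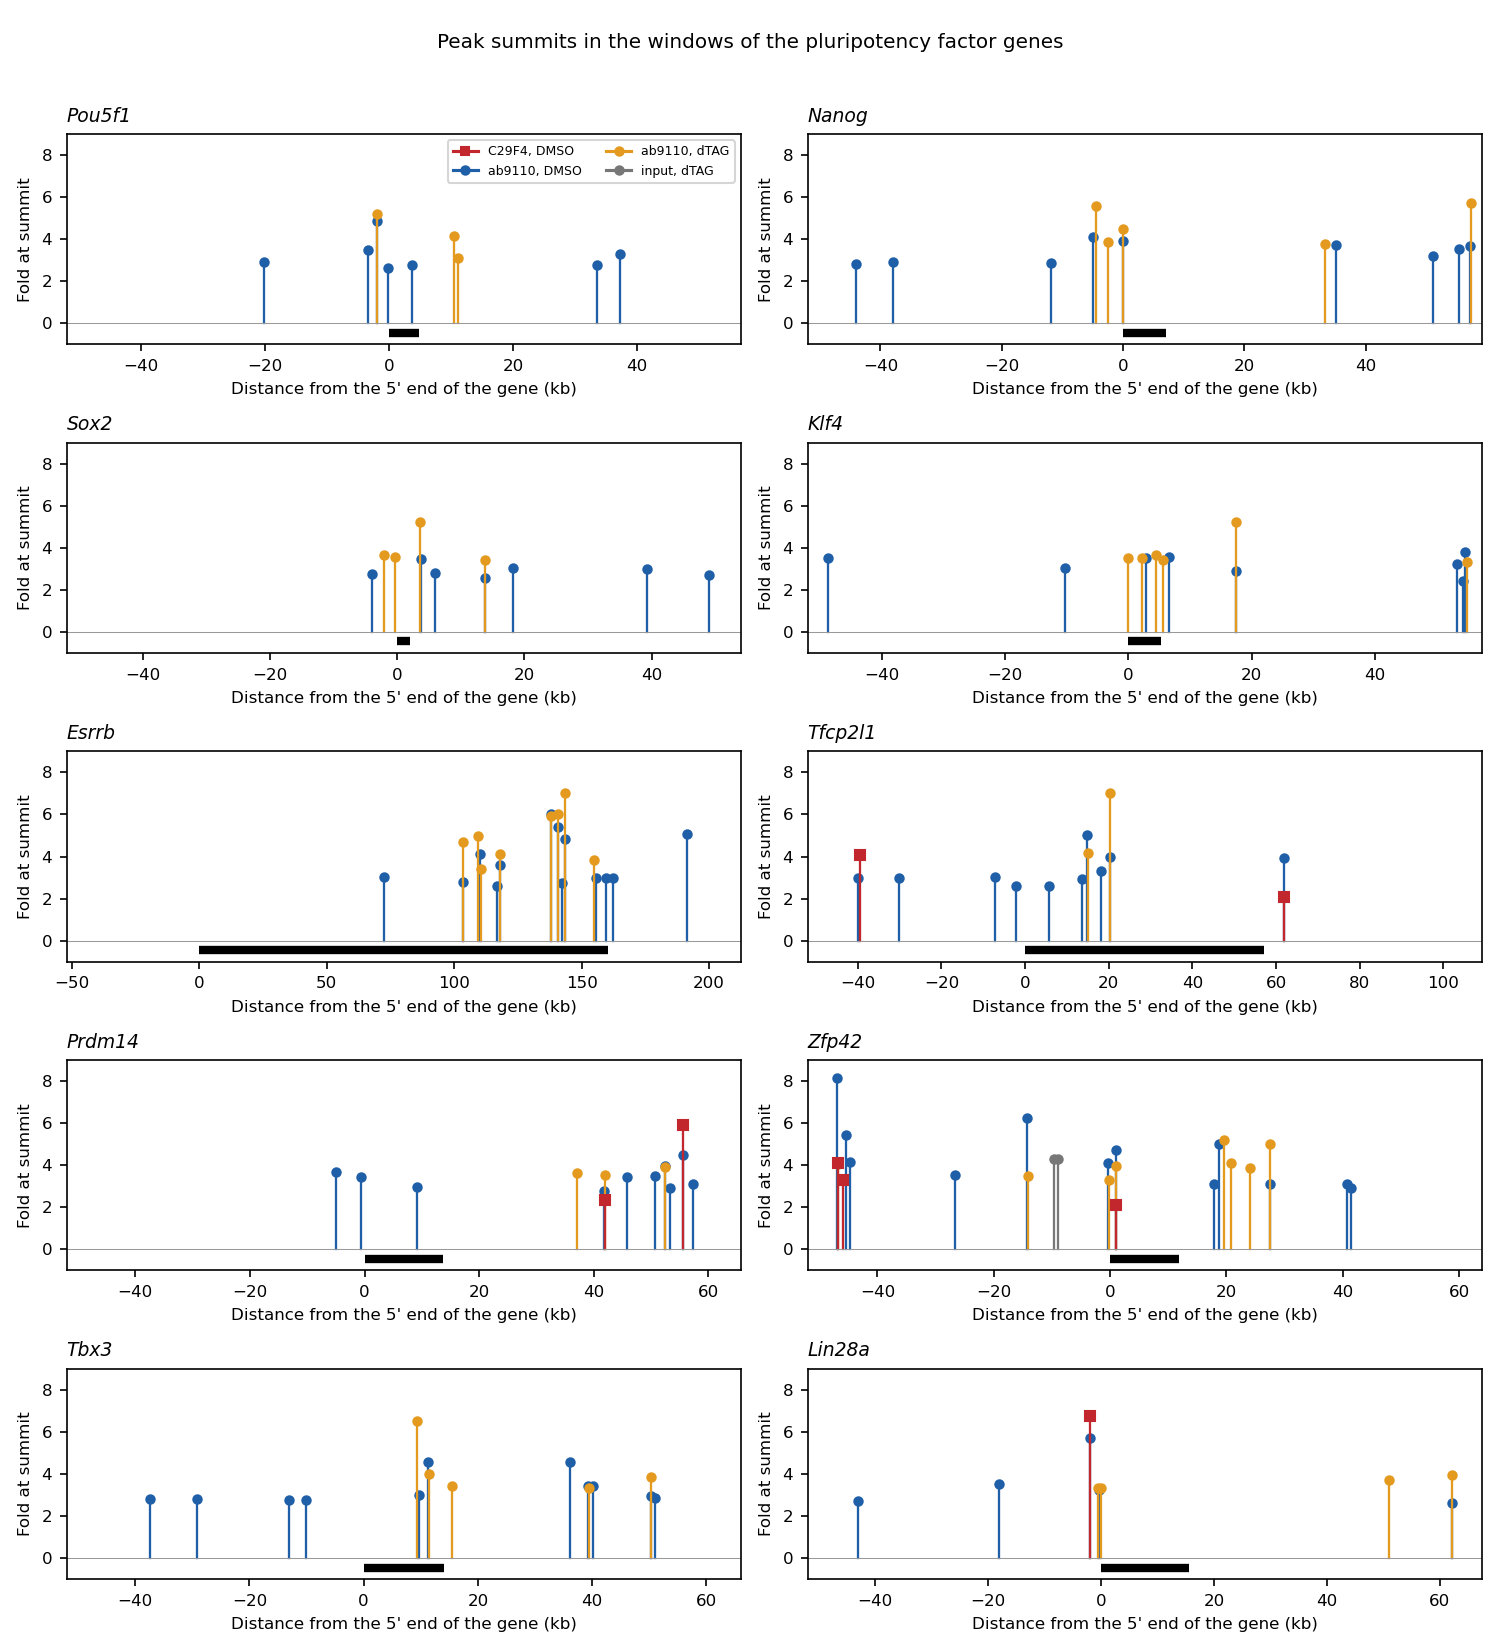
Peak summits in the window of each gene, by distance from the 5′ end of the gene in the direction of transcription (kb), with height giving the fold at the summit. Black bars are gene bodies, and colors separate the C29F4 (DMSO), ab9110 DMSO, ab9110 dTAG and dTAG input lists. C29F4 peaks (squares) appear at Tfcp2l1, Prdm14, Zfp42 and Lin28a, and blue and orange marks coincide at sites such as the one upstream of Pou5f1 and the cluster in Esrrb.

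Most of the ab9110 peaks in these windows lay away from promoters. Of the 92 DMSO peaks, 42 (45.7%) were intergenic, 17 lay in an intron of the member, 17 in the body of another gene, 9 within 1 kb of a start of the member and 1 in a member exon. Another 5 lay at the start of a noncoding gene or pseudogene and 1 at the start of another protein-coding gene, Slc2a3, a glucose transporter gene beside Nanog. Of the 48 dTAG peaks, 17 were intergenic, 10 lay at a member start (20.8%, against 9.78% in DMSO), 9 in a member intron, 5 in the body of another gene and 3 at the start of another protein-coding gene. Those 3 starts belonged to Tcf19 and Cchcr1, next to Pou5f1, and Hmgn2, next to Lin28a. These places were not counted for the windows of all protein-coding genes, so they are not read as particular to the members. Of all protein-coding genes, 25.1% had a summit at a start in DMSO and 31.9% in dTAG.

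To ask which of these sites were marked with both HA antibodies, the 8 C29F4 peaks were compared with the ab9110 lists. All 8 overlapped an ab9110 DMSO peak (95% exact binomial interval 63.1 to 100%), against 66.9% of C29F4 peaks in the windows of all protein-coding genes. The background value lies within this interval. Of the 8, 3 also overlapped a dTAG peak (37.5%, 8.52 to 75.5%, background 21.9%), and 5 met a DMSO peak but no dTAG peak (62.5%, 24.5 to 91.5%, background 45.8%). The reverse overlap was also measured. A C29F4 peak lay over 8 of the 92 DMSO peaks (8.70%, 3.83 to 16.4%), against 15.1% in the windows of all protein-coding genes. Of the 48 dTAG peaks, 3 did (6.25%, 1.31 to 17.2%), against 10.4%. Both background values lie within the intervals of the members. The C29F4 peaks lay 1880 bp upstream of Lin28a, near the start of Zfp42 and otherwise at least 39.6 kb from the 5′ end of the gene whose window held them.

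The upstream region of Lin28a gave the strongest C29F4 peak among these genes. It spanned chr4:134020285-134020887, in intergenic sequence, with its summit 1880 bp upstream of the 5′ end of the gene. The fold was 6.75, with 46 fragments over a background of 5.96. The ab9110 DMSO list had a peak with its summit 1898 bp upstream, a fold of 5.73 and 26 fragments. No dTAG peak overlapped it, although thinning the DMSO counts to the dTAG coverage would have kept the peak with a chance of 98.7%. The dTAG list did call peaks at the Lin28a promoter itself, 52 bp downstream and 466 bp upstream of the 5′ end, each with a fold of 3.34 over 13 fragments, and DMSO had a peak 363 bp upstream with a fold of 3.25 over 20 fragments. The HA signal 1.9 kb upstream was thus absent from the dTAG list while peaks nearer the start were called in both lists. In DMSO the upstream peak was also the one of highest fold in the window. In dTAG that was a peak 62180 bp downstream, with a fold of 3.94.

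Zfp42 had 3 C29F4 peaks, the most of any member. A pair lay about 46 kb upstream, at chr8:43352777-43353197 with a fold of 3.32 and at chr8:43353471-43354207 with a fold of 4.11. Both consisted of soft-masked sequence over 100% of their length. Reads with several possible positions were placed at 1 of them, so whether the signal belongs to this copy of the repeat was not tested. In ab9110 DMSO the farther of the pair overlapped the strongest peak of all member windows, 46994 bp upstream, with a fold of 8.15 and 48 fragments. After dTAG a peak remained at that position with a fold of 4.04 and 15 fragments. The nearer of the pair overlapped a DMSO peak of fold 5.44 with 26 fragments and no dTAG peak, where the chance of being kept at dTAG depth was 98.7%. The third C29F4 peak, at chr8:43305757-43306204, had its summit 989 bp from the nearest annotated start of Zfp42, only just within the limit of 1 kb, and a fold of 2.13. It overlapped peaks in DMSO (fold 4.73, 28 fragments) and dTAG (3.95, 17 fragments).

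At the Zfp42 promoter, the peak nearest the 5′ end lay 399 bp upstream in DMSO, with a fold of 4.12, and 111 bp upstream in dTAG, with a fold of 3.28. The dTAG peak of highest fold in the window, 5.21 over 15 fragments, lay 19557 bp downstream of the 5′ end, in a stretch beyond the gene where DMSO had a peak of fold 4.99. A site 14.3 kb upstream had a fold of 6.24 with 31 fragments in DMSO and of 3.50 with 11 fragments in dTAG. Zfp42 was thus the member with the densest signal in each of the lists.

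The C29F4 peaks at Prdm14 and Tfcp2l1 lay far from the promoters. At Prdm14, the peak at chr1:13071342-13071962 had its summit 55638 bp downstream of the 5′ end, within the noncoding gene Gm29283, with a fold of 5.93 and 38 fragments, and 64.9% of its bases were soft-masked. DMSO had a peak there with a fold of 4.49 over 22 fragments, and dTAG had none, with a chance of being kept of 92.4%. The second, at chr1:13084781-13085214, 41960 bp downstream, had a fold of 2.36 and overlapped peaks of fold 2.76 in DMSO and 3.55 in dTAG. At Tfcp2l1, the peak at chr1:118588222-118588603 lay in the neighboring gene Clasp1, 39584 bp upstream, with a fold of 4.09 and 100% soft-masked bases. Its DMSO counterpart had 13 fragments and a chance of only 13.9% of being kept at dTAG depth, so the absence of a dTAG peak was not informative there. The second Tfcp2l1 peak, at chr1:118689810-118690148, lay 61896 bp downstream of the 5′ end, beyond the gene, with a fold of 2.08 and no soft-masked bases. DMSO had a peak there with a fold of 3.91 and 23 fragments, and dTAG had none (chance of being kept 79.1%).

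No C29F4 peak lay in the windows of Pou5f1, Nanog, Sox2, Klf4, Esrrb or Tbx3. The ab9110 peaks at those genes therefore rest on 1 antibody. When the windows were widened to 150 kb on either side, the C29F4 count rose to 19 peaks at 8 members, with none at Nanog or Esrrb. The added 11 peaks lay at Tbx3 (3), Sox2, Klf4 and Prdm14 (2 each) and Pou5f1 and Zfp42 (1 each). Of these, 9 overlapped a DMSO peak and 4 a dTAG peak. Over the whole C29F4 list, 67.0% of peaks overlapped a DMSO peak and 21.7% a dTAG peak. All 3 at Tbx3 lay 83.6 to 90.8 kb upstream and overlapped DMSO and no dTAG peaks. The share of protein-coding genes with a C29F4 peak was not counted for 150 kb windows. The rise is therefore not read as particular to the members.

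The wider windows matter for Sox2 and Klf4, whose best known mESC enhancers lie far downstream. At Sox2, the DMSO list had its strongest peak 111019 bp downstream of the 5′ end (chr3:34759965-34762042), with a fold of 10.71 and 49 fragments. A dTAG peak at the same place had a fold of 6.30 with 23 fragments, and a C29F4 peak one of 2.67 with 48 fragments. About 3 kb farther out, a C29F4 peak (fold 2.36) overlapped a DMSO peak (fold 4.63, 24 fragments) and no dTAG peak, with a chance of being kept of 92.5%. Some 3 kb nearer the gene, DMSO (fold 5.27) and dTAG (8.73, 31 fragments) had peaks and C29F4 had none. At Klf4, C29F4 peaks 57014 and 67997 bp downstream had folds of 3.35 and 2.64, and each overlapped a peak in DMSO (4.44 and 6.20) and in dTAG (7.88 and 6.52).

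The effect of the degrader was examined through the overlap of the ab9110 lists. Of the 92 DMSO peaks at these genes, 31 overlapped a dTAG peak (33.7%, 24.2 to 44.3%), against 22.3% in the windows of all protein-coding genes. In the other direction, 32 of the 48 dTAG peaks had a DMSO counterpart (66.7%, 51.6 to 79.6%), against 46.1%. In each direction the interval of the members lay above the background value. These intervals treat the peaks as independent, although they lie in only 10 windows. Zfp42 and Esrrb each held more of the shared peaks than any other member, and whether the difference holds without them was not tested. The dTAG library was shallower, at 58.3% of the DMSO coverage, and many DMSO peaks were too small to be called at that depth. For each DMSO peak, the chance of being called again was computed from its fragments and background, after thinning both to the dTAG coverage. This chance leaves out every difference between separate ChIPs other than coverage, which could not be measured without replicates. Peak size moved with the overlap, since the median was 17 fragments for DMSO peaks in the member windows and 14 in the windows of all protein-coding genes, and its part in the difference was not tested. On average 40.3 of the 92 peaks would have been kept (11174 of 28522 in the windows of all protein-coding genes). This expectation covers DMSO peaks called again and sets no limit on the length of the dTAG list, which held 48 peaks here. The 31 peaks with a dTAG counterpart had a median of 25 fragments and a median chance of 84.3%. The 61 without one had a median of 14 fragments and a median chance of 19.1%, and 49 of them had a chance under 50%. In the windows of all protein-coding genes, 17153 of the 22165 DMSO peaks without a dTAG peak had a chance under 50%, with a median of 20.1%. For most of the sites without a dTAG peak, a loss was therefore not detectable at this depth.

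Restricting the view to the 16 DMSO peaks with a chance of at least 90% gives the sites that thinning alone would seldom have removed. Of these, 12 overlapped a dTAG peak and 4 did not (25.0%, 7.27 to 52.4%). In the windows of all protein-coding genes, the share without a dTAG peak was 43.7%, which lies within the interval of the members. The 4 were the peaks upstream of Lin28a, 55.7 kb downstream of the Prdm14 start, 45.4 kb upstream of Zfp42 and 191 kb downstream of the Esrrb start. The Esrrb site lay beyond the gene, with a fold of 5.08 over 21 fragments, and 95.2% of its bases were soft-masked. Of the 4, 3 overlapped a C29F4 peak (background 64.3%), and the Esrrb site did not. Of the 12 with a dTAG peak, 2 overlapped a C29F4 peak (16.7%, 2.09 to 48.4%), both at Zfp42, against a background of 50.8%, which lies just above that interval. The 12 comprised 4 peaks at Zfp42, 3 in Esrrb, 2 in Tfcp2l1 and 1 each at Pou5f1, Nanog and Tbx3.

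**Figure D3:**
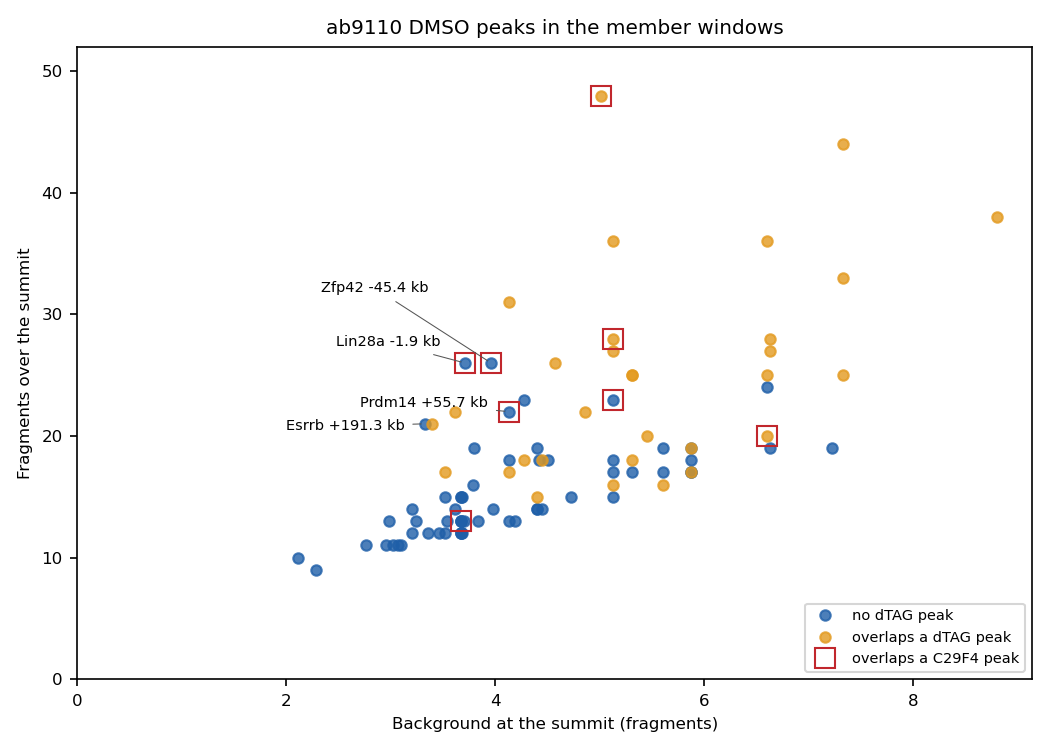
The 92 ab9110 DMSO peaks in the member windows, by background (x axis) and fragments over the summit (y axis). Orange points overlap a dTAG peak, blue points do not, and red squares mark the 8 that overlap a C29F4 peak. The 4 labeled blue points had a chance of at least 90% of being called at the depth of the dTAG library, and 3 of them carry a red square.

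Sites called in both treatments included regions known as enhancers of the core factors. Upstream of Pou5f1, where a distal enhancer drives OCT4 in mESCs, DMSO had a peak 1924 bp from the 5′ end (chr17:35503829-35505579, fold 4.87, 36 fragments) and dTAG one 1979 bp away (fold 5.18, 24 fragments). Each was the peak of highest fold in the window of its list. At the Pou5f1 start, DMSO alone had a peak, 117 bp upstream, with a fold of 2.62 and a chance of being kept of 12.9%. Upstream of Nanog, DMSO had a peak 4920 bp from the 5′ end (chr6:122702192-122703853, fold 4.08, the highest of the window, 33 fragments) and dTAG one 4469 bp away (fold 5.59, 26 fragments). The Nanog start was called in both lists, 85 bp upstream in DMSO with a fold of 3.92 and 68 bp upstream in dTAG with a fold of 4.46. The dTAG peak of highest fold at Nanog, 5.73 over 20 fragments, lay 57382 bp downstream inside Slc2a3.

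At Sox2 and Klf4 the start was called in dTAG and not in DMSO. The dTAG peak at Sox2 was 3033 bp wide (chr3:34648904-34651936), with its summit 321 bp upstream and a fold of 3.58 over 14 fragments. The dTAG peak at Klf4 was 2060 bp wide (chr4:55532083-55534142), with its summit 12 bp downstream of the 5′ end and a fold of 3.54 over 13 fragments. The nearest DMSO peaks ended or began 1412 and 2238 bp from these. DMSO peaks nearest the 5′ end lay 3674 bp downstream at Sox2 (fold 3.49, the highest in that window) and 2779 bp downstream at Klf4 (fold 3.51). The highest folds in dTAG were 5.21 at both genes, 3612 bp downstream of the Sox2 start and 17511 bp downstream of the Klf4 start, and each of these overlapped a DMSO peak. In DMSO the highest fold at Klf4 was 3.80, 54617 bp downstream.

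**Figure D4:**
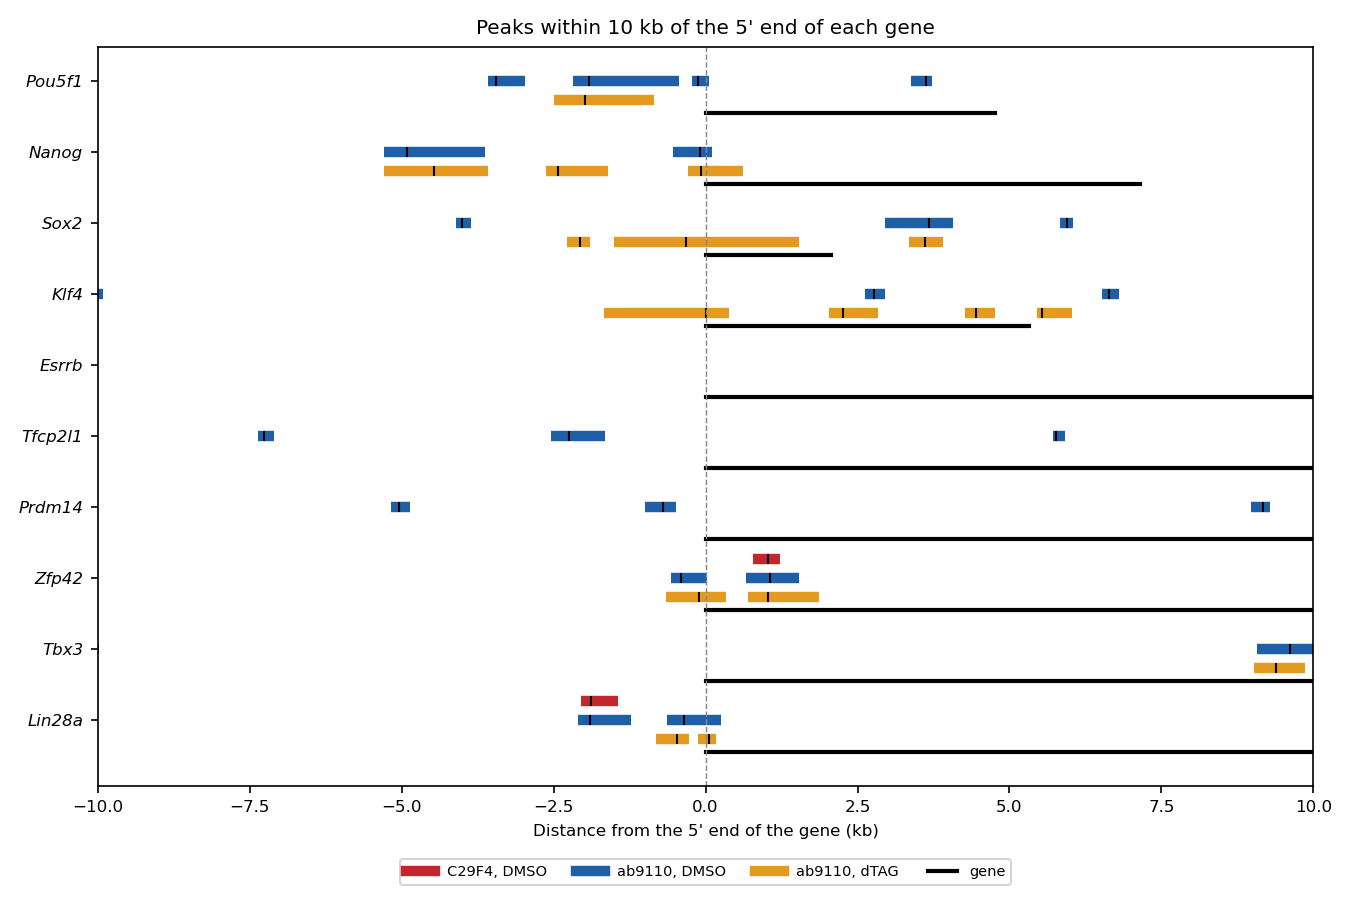
Extent of C29F4, ab9110 DMSO and ab9110 dTAG peaks within 10 kb of the 5′ end of each gene (kb, in the direction of transcription). Black ticks are summits and black lines gene bodies. Orange bars alone cover the starts of Sox2 and Klf4, blue and orange bars cover the starts of Nanog, Zfp42 and Lin28a, and no bar lies within 9 kb of the 5′ end of Esrrb or Tbx3.

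Over all 10 genes, 7 had a summit within 1 kb of an annotated transcript start in DMSO, against 25.1% of protein-coding genes, and 7 in dTAG, against 31.9%. In C29F4 only Zfp42 did (background 2.34%), and in the input none did (background 1.25%). Sorted by both ab9110 lists, Nanog, Esrrb, Zfp42, Tbx3 and Lin28a had a start peak in both (background 16.7%), Pou5f1 and Prdm14 in DMSO only (8.38%), Sox2 and Klf4 in dTAG only (15.2%) and Tfcp2l1 in neither. At Esrrb and Tbx3 the starts concerned were internal ones, far from the 5′ end of the gene, and with the 5′ end alone the counts were 5 in DMSO and 5 in dTAG. The share of protein-coding genes was not counted for the 5′ end alone, so these counts have no background value. The Prdm14 peak lay 704 bp upstream, with a fold of 3.42 and a chance of being kept of 35.2%. As with Pou5f1, its absence from the dTAG list was within what the depth allowed.

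Esrrb and Tfcp2l1 carried their strongest shared sites inside the gene, in introns and, at Esrrb, also at an internal transcript start. In Esrrb, a cluster of 3 sites between 138 and 143 kb downstream of the 5′ end was called in both lists. The folds were 6.03, 5.40 and 4.85 in DMSO, with 36, 44 and 26 fragments, and 5.91, 6.04 and 7.04 in dTAG, with 20, 32 and 24 fragments. The last of these, at an internal transcript start, was the dTAG peak of highest fold within the 50 kb windows of the 10 genes, and the first, at chr12:86497074-86499453, was the highest of the Esrrb window in DMSO. The Esrrb peaks nearest the 5′ end lay 72438 bp downstream in DMSO (fold 3.01) and 103459 bp downstream in dTAG (fold 4.68). In Tfcp2l1, intronic sites 14885 and 20195 bp downstream had folds of 5.01 and 3.98 in DMSO, and overlapping dTAG peaks had folds of 4.16 and 7.01. These were the only 2 dTAG peaks of that window, although it held 10 DMSO peaks. The DMSO peak nearest the Tfcp2l1 start lay 2249 bp upstream with a fold of 2.62.

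Tbx3 and Prdm14 completed the set. In Tbx3, DMSO and dTAG peaks met at an internal start (9614 and 9387 bp downstream of the 5′ end, folds 3.01 and 6.50) and in an intron 11339 and 11431 bp downstream (folds 4.57 and 3.98). The first was the dTAG peak of highest fold in the window, the second the DMSO one. A DMSO peak 36041 bp downstream had a fold of 4.55 over 23 fragments and no dTAG counterpart, with a chance of 89.0%. At Prdm14, the DMSO peak of highest fold was the one 55652 bp downstream. The 3 dTAG peaks lay 37166 bp (fold 3.63) to 52433 bp downstream, beyond the gene, and the one of highest fold (3.94, at 52433 bp) overlapped a DMSO peak with a fold of 3.98.

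Of the 48 dTAG peaks, 16 had no DMSO counterpart. The share with a counterpart was 66.7%, against 46.1% in the windows of all protein-coding genes, so peaks without one were a smaller share here. The DMSO library was the deeper of the 2. The 16 peaks had a median of 11 fragments and a median fold of 3.66, against 15 fragments and 4.15 for the 32 with a counterpart. Besides the starts of Sox2 and Klf4 and those of Tcf19, Cchcr1 and Hmgn2, they included sites 2421 bp upstream of Nanog (fold 3.87), 2073 bp upstream of Sox2 (3.66) and 20.8 kb downstream of the Zfp42 5′ end (4.10). The gap to the nearest DMSO peak ranged from 23 bp, in Esrrb, to 10260 bp, at Hmgn2. Without a replicate of either list, sites that dTAG changed cannot be told apart from sites near the calling threshold.

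The motifs that these factors recognize were counted within 100 bases of each summit. The KLF motif was the most common, in 16 of 92 DMSO summits (17.4%) and 12 of 48 dTAG summits (25.0%), against 10.8% and 12.4% of all summits of those lists and 0 of 8 C29F4 summits (4.74% over the list). The SOX-POU core occurred in 3 DMSO summits (3.26%, against 1.23% over the list) and 3 dTAG summits (6.25%, against 1.13%), at Pou5f1, Nanog and Sox2. Among DMSO summits, it was present in 3 of the 31 with a dTAG peak and 0 of the 61 without one, against 1.44% and 1.18% of such summits over the whole list. The ESRRB motif occurred in 4 DMSO summits (4.35%, against 1.65%), the octamer in 2 (2.17%, against 2.09%) and the SOX motif in 1 (1.09%, against 1.48%). These are matches of letters in few summits and do not show binding. RefSeq promoter sequences (GRCm38, 250 bases before to 50 after a start) matched 8 of the 10 genes. The KLF motif occurred in those of Pou5f1, Nanog, Tfcp2l1 and Zfp42 (22.2% of protein-coding genes had it), the SOX-POU core at Nanog (0.751%), the SOX motif at Pou5f1 (0.999%), the octamer at Zfp42 (1.85%) and the ESRRB motif in none (0.387%).

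Other genes of the pluripotency network were counted by the same rule, and each count of genes is read against the shares of all protein-coding genes, 84.9% with a DMSO, 71.2% with a dTAG and 32.1% with a C29F4 peak. Of 20 further naive or general pluripotency genes, 20 had a DMSO peak, 18 a dTAG peak and 11 a C29F4 peak, with a median density of 4.28 DMSO peaks per 100 kb, between the 7.23 of the 10 factors and the 1.75 of all protein-coding genes. Their 19 C29F4 peaks, of which 1 lay in the windows of both Dppa2 and Dppa4 and was counted for each, included those at the starts of Tcl1, Fbxo15 and Tdh, and 1 of fold 4.90 beyond Klf5. Of 16 genes of the LIF, BMP, FGF and WNT pathways, 15 had a DMSO, 15 a dTAG and 4 a C29F4 peak (Lifr, Il6st, Bmpr1a and Ctnnb1), at a median of 2.51 DMSO peaks per 100 kb. Of 13 genes of formative or primed pluripotency, 9 had a DMSO, 10 a dTAG and 3 a C29F4 peak (Otx2, Dnmt3a and Lef1), at a median of 1.45. The share of DMSO peaks that overlapped a dTAG peak was 30.8% (22.6 to 40.0%), 38.5% (26.7 to 51.4%) and 32.1% (15.9 to 52.4%) in the 3 groups, so the 33.7% of the core factors was not set apart from theirs.

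The protein-coding genes outside the list whose pattern was nearest to the median of the 10 members were Txn2, Efcab2 and Zranb3. Likeness was the Euclidean distance, over the 4 lists, of the log2 of the highest fold in the window, and was 0.0141, 0.0164 and 0.0181. The members' median highest folds were 4.71 in DMSO and 5.21 in dTAG. In C29F4 and the input the median stood for no peak, although 4 of the 10 members had a C29F4 peak and Zfp42 had input peaks. This likeness took no account of the number of peaks in a window.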

How the data were processed

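HA ChIP-seq and input peak lists from EHMT2-dTAG mESCs were analysed, grouped by antibody and treatment as labeled. The authors aligned reads to mm10 with STAR 2.7.10, placing multimapping reads at 1 position, removed duplicates (Picard 2.26.0) and blacklisted regions, and called peaks with MACS2 2.2.6, keeping q-values under 0.05. Whether a control entered the calls is not given in the sources used here. Each deposited list gives a fold, −log10 p and −log10 q values and a score, which was not used for results. The fold is the ratio of pileup to background at the summit, with 1 added to both. The C29F4 list was called by the authors on merged samples, so its replicates could not be compared. The inputs of the DMSO-treated cells were not analysed here.

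Windows, gene starts and exons came from GENCODE M21 and sequences from RefSeq GRCm38. All peaks fit its chromosome lengths. Peaks were assigned to a window, and lists compared, by an overlap of at least 1 bp, with exact (Clopper-Pearson) 95% intervals. Fragments and background at each summit were solved from fold and p-value (100% of peaks within 0.01 of −log10 p, and 100% of 400 simulated peaks). DMSO peaks were thinned binomially to 58.3% and counted as kept at a −log10 p of at least 4.28, the lowest in the dTAG list. Python 3.11.15 with SciPy 1.17.1 and NumPy 2.4.6 was used, with no test between lists. The text names every C29F4 and input peak of the windows and, per gene and ab9110 list, the peaks nearest the start and of highest fold. The genes, lists and motifs were chosen with earlier results of these data known. Alternatives covered q-values, window sizes, overlap definitions, start distances and thinning.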

Additional observations from a re-analysis of the deposited data

How the results depend on the processing

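The 50 kb windows, the q-value and the depth set the counts, while the overlaps of the C29F4 peaks stayed within their intervals under every alternative. In the member windows, C29F4 peaks numbered 8, and 5 at a q-value under 0.001. With windows of 10, 100 and 150 kb they numbered 3, 16 and 19, and members with a C29F4 peak rose from 4 to 7 (100 kb) and 8 (150 kb). DMSO peaks numbered 92, and 57 and 38 at q-values under 0.01 and 0.001, 44 and 140 with windows of 10 and 150 kb, and 40.3 on thinning to the dTAG coverage. dTAG peaks numbered 48, and 21 at a q-value under 0.001 and 80 with 150 kb. Input peaks fell from 2 to 0 at q-values under 0.01 and under 0.001, as did members with an input peak, from 1 to 0 under both. Members with a summit at a start fell from 7 to 4 in DMSO and from 7 to 4 in dTAG at a q-value under 0.001. In C29F4 that count was 1, and 0 at a q-value under 0.001, within 500 bp or with the 5′ end alone, and 2 within 2 kb. The share of DMSO peaks that overlapped a dTAG peak, 33.7%, was 47.4% at a q-value under 0.01 and 53.8% on thinning, and the share of dTAG peaks that overlapped a DMSO peak, 66.7%, was 50.0% with summits at most 250 bp apart. Wider windows and stricter q-values change the counts by construction, and the cause of the shifts in shares was not tested. No paired analysis was possible because each condition had 1 peak list and no list could be left out. For 56 of the 92 DMSO peaks (19750 of 28522 in the windows of all protein-coding genes), the chance of being called at the dTAG depth was under 50%. Whether these peaks were lost was not tested.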
